A study of Danio rerio with 8 samples.

Results

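The secretory calcium-binding phosphoprotein (SCPP) genes were followed in the GFP-positive cells of zebrafish larvae at 4 days post fertilization. A gene counted as a member when the symbol of its row in the deposited expression table was spp1, enam, scpp1, scpp5, scpp6, scpp7, scpp8 or scpp9. Of these 8 symbols, 7 had a row among the 32520 gene rows, each under 1 Ensembl identifier, and scpp6 had none. RefSeq gives scpp6 as an older name of ambn, so the ambn row is described beside the members. The odam and sparcl1 rows, genes of the same chromosomal region, are described in the same way.

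The comparison was between P2 cells, with strong GFP fluorescence, and P1 cells, with weak fluorescence, in 3 P2 libraries (replicates 1, 2 and 4) and 5 P1 libraries (replicates 1, 2, 3, 5 and 6). Both came from Tg(sp7:sp7-GFP) larvae of the AB strain (line ulg071), the offspring of a heterozygous carrier outcrossed to a wild-type fish, and no treatment was given to either. In this line GFP sits in the endogenous sp7 gene, which encodes an osteoblast transcription factor, so cells with more GFP were sorted on the activity of that gene and the sp7 level is no finding here. Each library was made from cells of a pool of dissociated larvae, and the study kept only libraries of high quality. The labels number the replicates but do not say that they came from separate clutches, so the p-values measure the spread between these libraries, which may be in part technical.

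SCPP proteins are secreted into the matrix of bone, dentin, enamel and enameloid, the tissues that mineralize. Their genes arose by tandem duplication from a relative of the SPARC genes, and they fall into an acidic group, whose many phosphorylated serines and acidic residues bind calcium and the mineral surface, and a group rich in proline and glutamine, which is known mainly from the epithelial side of teeth. In teleosts the acidic group includes spp1 (osteopontin) and scpp1, and the proline- and glutamine-rich group includes scpp5, scpp7, scpp8, scpp9 and odam.

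The libraries held 7510312 to 10811492 reads on genes in P2 and 8528850 to 13034333 in P1. Values are normalized read counts, the reads divided by a size factor of the library, and 3 reads were worth between 0.556 and 1.02 normalized counts. Reads carry no molecular identifiers, so counting intervals cover counting error only. They pool the reads of a population and leave out the spread between its libraries. Mitochondrial genes took 13.2 to 23.0% of the reads in P2 and 21.2 to 35.5% in P1. P2 replicate 2 stood nearest to P1: over the 18475 genes tested its mean Spearman correlation was 0.831 with the P1 libraries, against 0.755 and 0.741 for P2 replicates 1 and 4, a description across genes that are not independent of each other. P1 replicate 2 was the library highest in keratinocyte markers. Of 8 osteoblast markers tested, 6 were higher in P2, where 7.57% of all tested genes were. The 6 include sp7, on which the cells were sorted. The collagen genes col1a1a and col1a2 were called higher by DESeq2 but not by limma. A further marker, bglap, an osteocalcin gene that was not tested, had no read in any P2 library. The paper names another gene, bglapl, as a marker of mature osteoblasts and lists it as upregulated in both P1 and P2. That listing drew on the change from whole larvae to P1 as well as that from P1 to P2.

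Of the 7 members with a row, 5 differed between the populations at an adjusted p under 0.05 by limma, while 14.6% of all tested genes did. Higher in P2 were spp1, enam, scpp1 and scpp7 (7.57% of tested genes were higher), and scpp5 was lower in P2 (7.05% were lower). Of all genes called, 51.8% were higher in P2, or 39.9% with TMM scaling, which moved the median of all genes by -0.12 on the log2 scale and changed no member's side. Leaving out any 1 library gave 4 to 6 called members, and spp1, enam, scpp1 and scpp7 were called each time. The libraries of the populations did not overlap for 5 members, 4 of them with P2 above and 1, scpp9, with P2 below. Among all tested genes 20.6% did not overlap, 11.8% with P2 above and 8.82% with P2 below. All 7 members passed the filter of 10 reads in 3 libraries, but scpp7 passed it only through P2 and scpp9 only through P1, so a difference was built into their selection. Because these are bulk libraries of sorted cells, fewer cells of a type and less RNA per cell cannot be told apart.

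**Figure D1:**
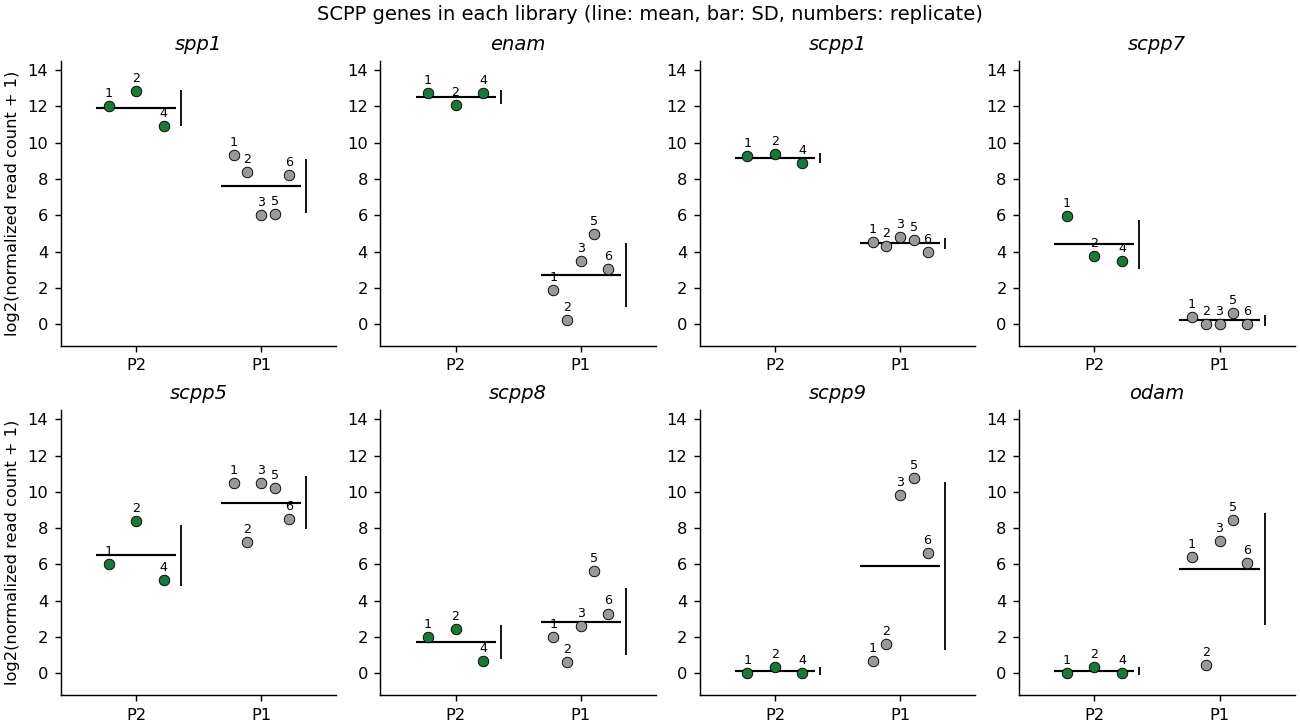
Normalized read counts of the 7 SCPP members and of odam, on a log2(value + 1) axis, in each library of P2 (green, left) and P1 (grey, right), with the replicate number beside each point, the mean as a line and the SD as a bar. The enam points of P2 lie between 4254 and 6960 normalized counts and those of P1 between 0.185 and 30.1, while the scpp9 points of P1 run from 0.604 to 1761.

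The acidic members were both higher in P2. spp1 (ENSDARG00000044276) encodes osteopontin, which binds mineral through its acidic stretches and cells through an integrin-binding motif. It had 4088, 7503 and 1928 normalized counts in P2 replicates 1, 2 and 4. The P1 values were 648, 336, 63.7, 65.8 and 297 in replicates 1, 2, 3, 5 and 6. The lowest P2 library stood clear of the highest P1 library, and P1 itself was divided, with replicates 3 and 5 far below the other P1 libraries. The mean of P2 was 16.0 times that of P1, and the log2 fold change was 4.32 (SE 0.71, limma adjusted p = 0.00243).

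The range of spp1 in P1 was 10.2-fold and in P2 3.89-fold. The SD of its log2 value in P1, 1.49, lay at percentile 97.0 of the SDs of all tested genes, whose median was 0.55. Leaving out each library in turn kept the fold change between 3.85 and 4.83 and the adjusted p between 0.00138 and 0.0189.

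scpp1 (ENSDARG00000090416) is the other acidic member and in teleosts is known from bone and tooth matrix. It had 616, 671 and 465 normalized counts in P2, against 21.8, 18.9, 27.2, 23.6 and 14.6 in P1. Both sets of values were tight: the highest library was 1.44 times the lowest in P2 and 1.86 times the lowest in P1. The mean of P2 was 27.5 times that of P1, with a log2 fold change of 4.73 (SE 0.30, limma adjusted p = 2.09e-06). P1 replicates 3 and 5, the lowest for spp1, were the highest for scpp1, so these acidic members did not order the P1 libraries in the same way.

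enam (ENSDARG00000092730) was far higher in P2. Its mammalian counterpart, enamelin, is a matrix protein of forming enamel. enam had 6960, 4254 and 6872 normalized counts in P2. In P1 it had 2.72, 0.185, 10.2, 30.1 and 7.15, which rest on 9, 1, 46, 112 and 22 reads. The P2 libraries were alike, and the P1 libraries were all low but far apart on the log scale, with replicate 2 lowest and replicate 5 highest. The mean of P2 was 599 times that of P1. The log2 fold change was 9.80 (SE 0.77, limma adjusted p = 9.46e-06), and it stayed between 9.18 and 10.36 when each library was left out in turn.

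scpp7 (ENSDARG00000074132), another proline- and glutamine-rich member, was the least read of the members that were higher in P2. It had 60.4, 12.4 and 10.2 normalized counts in P2, from 178, 45 and 35 reads. In P1 it had 0.302 and 0.537 in replicates 1 and 5, and replicates 2, 3 and 6 had no read. All 3 P2 libraries were above all 5 P1 libraries, and P2 replicate 1 was well above the others. With 258 reads in P2 and 3 in P1, the size-factor-scaled ratio was 172 (exact 95% counting interval 58.3 to 841). The log2 fold change on the log2(value + 1) scale was 4.19 (SE 0.61, limma adjusted p = 0.00109), a scale that understates changes of genes this low. As scpp7 passed the filter only through P2, a difference was built into its selection.

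**Figure D2:**
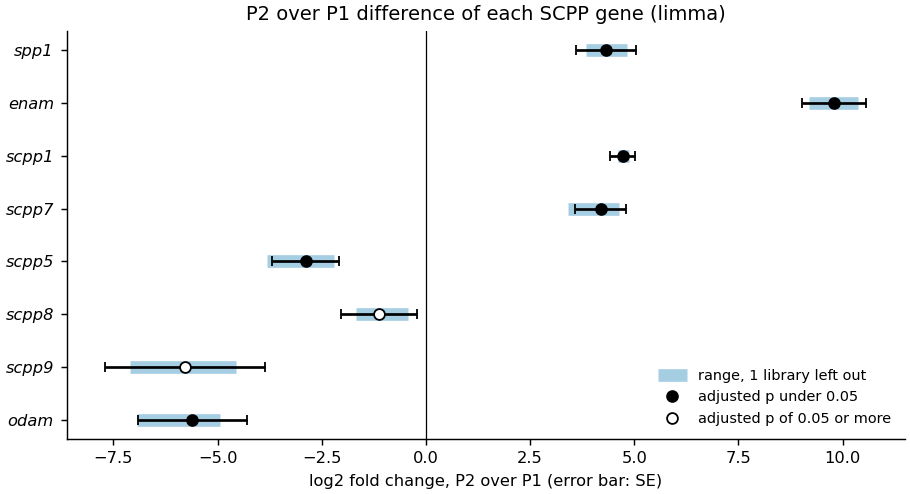
log2 fold change of P2 over P1 for each SCPP member and odam (point) with its SE (bar), filled where the limma adjusted p was under 0.05, and the range when each library was left out in turn (blue band). enam lies at 9.80 and spp1, scpp1 and scpp7 lie between 4.19 and 4.73, while scpp5, scpp9 and odam lie below 0 with broad bands.

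The remaining proline- and glutamine-rich members went the other way or did not differ beyond their spread. scpp5 (ENSDARG00000078622) is known from the tooth-forming tissues of zebrafish and other fishes. It had 63.1, 333 and 34.2 normalized counts in P2, against 1442, 151, 1428, 1203 and 357 in P1. The populations overlapped, because P1 replicate 2 lay below P2 replicate 2 and the remaining P1 libraries lay above all of P2. The log2 fold change was -2.88 (SE 0.80, limma adjusted p = 0.0332). This call was narrow: it was lost without P2 replicate 1 (0.130), P2 replicate 4 (0.158), P1 replicate 1 (0.0633), P1 replicate 3 (0.0631) or P1 replicate 5 (0.0736), all limma adjusted p, and with edgeR on the recovered reads (adjusted p = 0.0685).

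scpp9 (ENSDARG00000087178) had the widest spread. It was read once in all of P2, with 0, 0.275 and 0 normalized counts. In P1 it had 0.604, 2.04, 917, 1761 and 96.6, from 2, 11, 4143, 6559 and 297 reads. P1 thus held high libraries (replicates 3 and 5), a middle one (replicate 6) and low ones (replicates 1 and 2) that came close to P2. Over the pooled reads the scaled level in P1 was 5497 times that in P2 (exact 95% counting interval 986 to 217127), a figure set mainly by P1 replicates 3 and 5.

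The SD of the log2 value of scpp9 in P1, 4.63, lay at percentile 99.99 among tested genes. Its log2 fold change of -5.79 had an SE of 1.92, and the limma adjusted p was 0.0608, so it was not called although all P2 libraries lay below all P1 libraries. It was called without P1 replicate 1 (limma adjusted p = 0.0203), without P1 replicate 2 (0.0245), with edgeR (adjusted p = 0.0296) and with DESeq2 (adjusted p = 1.32e-05). Between replicates 1 and 2 of each population alone the log2 fold change was -0.97.

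odam (ENSDARG00000074476), whose mammalian counterpart is made by enamel-forming cells late in enamel formation and by the epithelium that seals the gum to the tooth, lies next to scpp9. In RefSeq (assembly GRCz12tu) the odam and scpp9 gene models overlap. The reads were counted on Ensembl genes of GRCz11, and whether the models overlap there was not examined. If they do, reads of the pair could have been split between them, which was not tested. odam had 0, 0.275 and 0 normalized counts in P2, against 83.7, 0.371, 154, 343 and 65.3 in P1. Replicates 3 and 5 were the highest P1 libraries for both genes, but P1 replicate 1, where scpp9 had 2 reads, held odam at a level close to that of replicate 6. P1 replicate 2 was at the level of P2. The log2 fold change was -5.60 (SE 1.31, limma adjusted p = 0.0160). As no P2 library had 10 reads, odam passed the filter only through P1, and a difference was built into its selection too. The call was lost in 5 of 20 alternatives: without P2 replicate 1 (limma adjusted p = 0.0704), without P2 replicate 4 (0.0644), with voom (0.418), and over replicates 1 and 2 alone, with a replicate block (0.162) or without one (0.427).

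scpp8 (ENSDARG00000093124), the neighbour of spp1, was low in both populations. It had 3.05, 4.40 and 0.585 normalized counts in P2, against 3.02, 0.556, 5.09, 48.9 and 8.78 in P1. P1 replicates 1 and 2 lay among or just below the P2 values, P1 replicates 3 and 6 lay above all of them, and P1 replicate 5 stood far above every other library. The log2 fold change was -1.13 (SE 0.91, limma adjusted p = 0.417). ambn, the gene that RefSeq also lists as scpp6, encodes ameloblastin, an enamel matrix protein in mammals. It had 1, 0 and 6 reads in P2 and 0, 1, 1, 13 and 0 reads in P1, too few to be tested, and P1 replicate 5 again held the most.

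P1 replicate 5 was thus the highest P1 library for enam, scpp8, scpp9, odam and ambn, and P1 replicate 2 was the lowest for enam, scpp5, scpp8 and odam. Markers of other cell types were compared between P2 and P1 as well, where 7.57% of all tested genes were higher and 7.05% were lower in P2. Their sums in P1 did not all follow the order of the P1 libraries given above. Of 9 keratinocyte markers 4 were lower in P2, and their summed level was 583 to 2953 normalized counts in P2 and 2539 to 23827 in P1, the top value being that of P1 replicate 2. Of 6 neutrophil markers tested 2 were lower in P2, with sums of 2.63 to 132 in P2 and 168 to 638 in P1, highest in P1 replicate 5, and lyz and cxcr1 had no read in P2. Of 8 macrophage markers tested 5 were lower in P2, with sums of 23.1 to 80.2 in P2 and 216 to 264 in P1, and cd74a had no read in P2. Any marker without a read in P2 could pass the filter only through P1, so a difference was built into its selection. Of 8 endothelial markers 5 were lower in P2, with sums of 178 to 344 in P2 and 414 to 679 in P1. Of 6 osteoclast markers 4 were lower in P2, with sums of 237 to 338 in P2 and 312 to 478 in P1, lowest in P1 replicate 5. Chondrocyte markers showed no such shift: of 9, 1 was higher and 1 was lower in P2. Their sums overlapped, at 5304 to 15232 in P2 and 10896 to 17536 in P1. The part of these cells in the scpp5, scpp9 and odam values was not tested.

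Markers of tooth-forming tissue were read in both populations. The list of 9, which holds odam and ambn, summed to 510 to 607 normalized counts in P2 and 192 to 535 in P1. Of the top P1 sum, 535 in P1 replicate 5, odam alone gave 343, while it gave at most 0.275 in any P2 library. None of the 9 was at 0 throughout either population. Of 7 tested, 2 were higher in P2, dlx2b and dlx3b, homeobox genes active in tooth germs and in other skeletal cells, and 2 were lower, odam among them. The enamel protease genes mmp20a and mmp20b stayed at or below 10.5 normalized counts in every library. The part of tooth cells in the SCPP values was likewise not tested.

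As a share of all reads, the 7 members together took 0.454, 0.429 and 0.423% in P2, against 0.0672, 0.0211, 0.0973, 0.122 and 0.0282% in P1. The mean was 0.436% ± 0.016 in P2 (SD, n = 3) and 0.067% ± 0.043 in P1 (SD, n = 5). The P2 libraries were almost equal in this share, although its make-up differed among them, and the P1 libraries were several-fold apart. As a share of non-mitochondrial reads the P2 libraries were less alike, at 0.568, 0.557 and 0.488% in replicates 1, 2 and 4.

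Within the family total, whose reads are not corrected for transcript length, enam took 59.0, 33.3 and 73.8% in P2 and spp1 34.7, 58.7 and 20.7%. P2 replicate 2 was thus the P2 library in which spp1 outweighed enam. In P1 enam took at most 0.960%. scpp5 took 29.8 to 68.1% of the family reads of the P1 libraries and 0.368 to 2.60% of those of P2. scpp9 added 37.4% in P1 replicate 3 and 56.2% in P1 replicate 5, and 0.0285% in P1 replicate 1. The P1 total therefore came from different members in different libraries, spp1 and scpp5 in replicates 1, 2 and 6 and scpp5 and scpp9 in replicates 3 and 5.

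**Figure D3:**
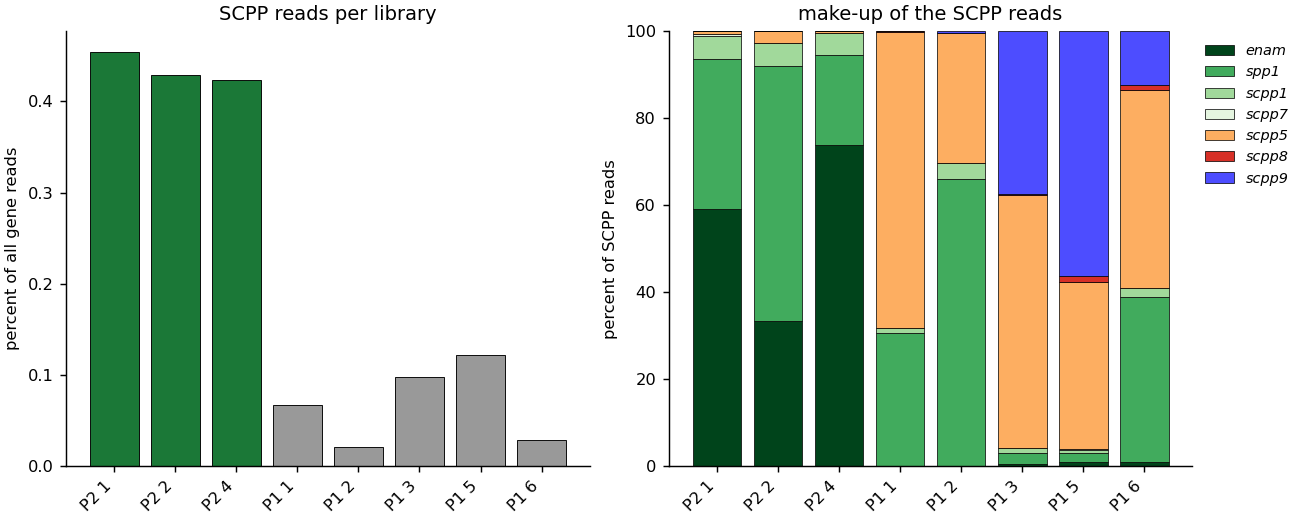
Left, reads of the 7 SCPP members as a percent of all gene reads in each library of P2 (green) and P1 (grey). Right, the percent of those SCPP reads that each member took, not corrected for transcript length. The P2 bars reach 0.423 to 0.454% and hold mostly enam and spp1, and the P1 bars reach 0.0211 to 0.122% and hold mostly scpp5, spp1 and scpp9.

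The members' place on the chromosomes did not divide them by direction. RefSeq (assembly GRCz12tu) was used for gene order and model overlap, not for counting reads. It puts 5 members on chromosome 1 and 2, scpp8 and spp1, side by side on chromosome 10. On chromosome 1, scpp1 stands next to sparcl1, and 120 other genes lie between it and a run of enam, scpp5, scpp7, ambn, odam and scpp9. Along this run the log2 fold changes alternated in sign, 9.80 for enam, -2.88 for scpp5 and 4.19 for scpp7, before -5.60 for odam and -5.79 for scpp9. enam and scpp5 are immediate neighbours, so a member called higher and a member called lower lay side by side.

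sparcl1 (ENSDARG00000074989), the SPARC-like gene next to scpp1, had 19.0, 28.6 and 5.86 normalized counts in P2, against 1.51, 10.2, 29.2, 54.0 and 14.0 in P1. The ranges overlapped (log2 fold change 0.11, SE 0.84, limma adjusted p = 0.941), unlike those of scpp1 beside it. Counting up to 5 places to either side of each member, 34 neighbours outside the list were found, 21 could be matched to a row and 17 were tested. Of these, sh3bp2 and arhgap10 were higher in P2 and odam was lower, 3 of 17 where 14.6% of all tested genes were called. sh3bp2, which lies near spp1 and encodes an adaptor protein mutated in human cherubism, had 72.3, 19.8 and 73.2 normalized counts in P2 and 0.302, 4.08, 1.99, 2.42 and 2.28 in P1. Its populations did not overlap (log2 fold change 4.04, SE 0.58, limma adjusted p = 0.00108). arhgap10, which lies near scpp1, changed less, with a log2 fold change of 1.31 (SE 0.35, limma adjusted p = 0.0295).

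**Figure D4:**
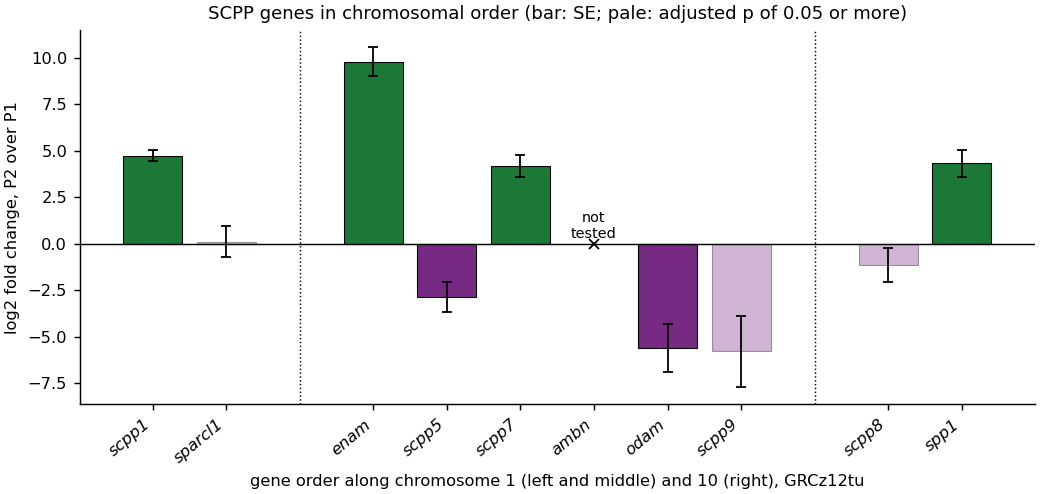
log2 fold change of P2 over P1 (bars, with SE) for SCPP genes and sparcl1 in their chromosomal order, with dotted lines between groups of neighbours and genes outside the family left out. enam at 9.80 stands directly beside scpp5 at -2.88, and spp1 at 4.32 beside scpp8 at -1.13, the last not past the test.

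Genes that act with SCPP proteins or are related to them were taken in 6 lists of 76 rows, of which 72 were tested. By limma, 32 were higher in P2, 6 were lower and 34 were not called. Of all tested genes 7.57% were higher and 7.05% were lower, the shares against which the counts of each list stand.

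The secretory pathway kinases, which phosphorylate SCPP proteins on their way out of the cell, had 3 of 6 tested genes higher in P2 and 0 lower by limma, 0 also at an unadjusted p under 0.05 and with edgeR, DESeq2 and voom, with a median log2 fold change of 1.79 against 0.00 for all tested genes. fam20cb and fam20ca are copies of FAM20C, the kinase that in mammals phosphorylates osteopontin and enamelin. fam20cb had 161, 119 and 292 normalized counts in P2 and 0.302, 17.8, 5.31, 4.56 and 9.43 in P1 (log2 fold change 4.85, SE 0.70, limma adjusted p = 0.00104). Its lowest P2 library was above every P1 library, as was that of fam20ca, with 72.3, 30.6 and 62.6 in P2 and 0, 18.3, 4.43, 2.15 and 4.23 in P1 (log2 fold change 3.57, SE 0.76, limma adjusted p = 0.00999). The fam20ca call was lost without P2 replicate 1 (limma adjusted p = 0.0624). fam20a, whose mammalian product is a pseudokinase partner of FAM20C, was also higher in P2 (log2 fold change 2.09, SE 0.41, limma adjusted p = 0.00642).

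The osteopontin receptors had 5 of 12 tested genes higher and 2 lower, with a median log2 fold change of 1.03. Higher were integrin subunit genes, itga5, itgb1a, itgb1b, itgb5 and itgb8, with log2 fold changes of 1.18 to 1.75. cd44a, a copy of the CD44 gene for a hyaluronan receptor that also binds osteopontin, was lower: it had 0, 1.93 and 0 normalized counts in P2 and 54.4, 33.5, 44.3, 23.4 and 36.1 in P1. Its populations did not overlap (log2 fold change -4.73, SE 0.50, limma adjusted p = 9.37e-05), but it too passed the filter only through P1. itgb3b, a copy of the beta subunit gene of the classical osteopontin receptor, was lower as well (log2 fold change -1.67, SE 0.52, limma adjusted p = 0.0492). The integrin calls depended on single libraries: without P2 replicate 1, and likewise without P2 replicate 4, the receptor list had 1 call, cd44a.

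The enzymes that cleave, dephosphorylate or cross-link osteopontin had 5 of 14 tested rows higher and 3 lower, with a median log2 fold change of -1.08. phex, a peptidase gene that in mammals removes mineral-binding peptides of SCPP proteins, had 3327, 4118 and 3218 normalized counts in P2 and 122, 41.3, 60.4, 31.7 and 64.7 in P1. Both groups were tight and far apart (log2 fold change 5.92, SE 0.38, limma adjusted p = 2.09e-06). The matrix metalloproteinase genes mmp14b and mmp9 were also higher in P2, with log2 fold changes of 1.75 (SE 0.32, limma adjusted p = 0.00427) and 1.68 (SE 0.40, limma adjusted p = 0.0172). Lower in P2 were acp5a, a tartrate-resistant acid phosphatase gene (log2 fold change -2.20, SE 0.48, limma adjusted p = 0.0110), tgm2b, a transglutaminase gene, and 1 of the 2 rows named mmp13a. Of these, acp5a is also on the osteoclast marker list above and mmp13a on the neutrophil list, so they were counted there too. Without P2 replicate 1 this list had 2 calls.

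The mineralization partners had 9 of 15 tested genes higher and 0 lower by limma, with a median log2 fold change of 1.42. At an unadjusted p under 0.05 it had 1 lower, ankha, which DESeq2 called and edgeR and voom did not. col10a1a, a network-forming collagen gene of zebrafish osteoblasts, had 51802, 37514 and 33015 normalized counts in P2 and 392, 127, 96.3, 151 and 231 in P1 (log2 fold change 7.82, SE 0.43, limma adjusted p = 5.12e-07). ifitm5, a membrane protein gene of bone cells, panx3, a channel gene, and phospho1, a phosphatase gene that releases phosphate inside matrix vesicles, had log2 fold changes of 7.96 (SE 0.56), 7.18 (SE 0.42) and 5.75 (SE 0.47), with limma adjusted p of 3.71e-06, 1.06e-06 and 1.33e-05. The osteoblast regulators had 10 of 16 higher and 0 lower by limma, 0 also at an unadjusted p under 0.05 and with edgeR, DESeq2 and voom, with a median log2 fold change of 1.89. This list includes sp7, on which the cells were sorted (log2 fold change 4.20, SE 0.37). Of the genes called higher in these lists, col10a1a, ifitm5, panx3, entpd5a, sp7 and runx2b were also counted among the osteoblast markers above. The gene dlx3b was likewise counted among the tooth markers. dlx4a, a homeobox gene, and runx3, a Runt factor gene, had log2 fold changes of 3.32 (SE 0.51) and 1.98 (SE 0.33), with limma adjusted p of 0.00155 and 0.00252.

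The SPARC family, whose genes are relatives of the SCPP genes, had 0 of 9 genes called higher in P2 by limma and 1, fstl1a, lower. This is near the 14.6% called among all tested genes, and the median log2 fold change was -0.97. fstl1a, a follistatin-like gene, had 4.07, 11.8 and 14.1 normalized counts in P2 and 65.9, 67.3, 64.0, 61.2 and 33.2 in P1, with no overlap (log2 fold change -2.53, SE 0.43, limma adjusted p = 0.00263). sparc itself, the osteonectin gene, had 9818, 15856 and 7153 normalized counts in P2 and 6961, 4595, 5067, 4667 and 4144 in P1. Its P2 values were all above those of P1, but the difference, 1.05 on the log2 scale (SE 0.40), missed the threshold (limma adjusted p = 0.0966). At an unadjusted p under 0.05, limma had 1 gene of this list higher in P2, sparc, and 3 lower. After adjustment, edgeR and voom called none higher and 1, fstl1a, lower, and DESeq2 called 1 higher (sparc) and 3 lower.

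**Figure D5:**
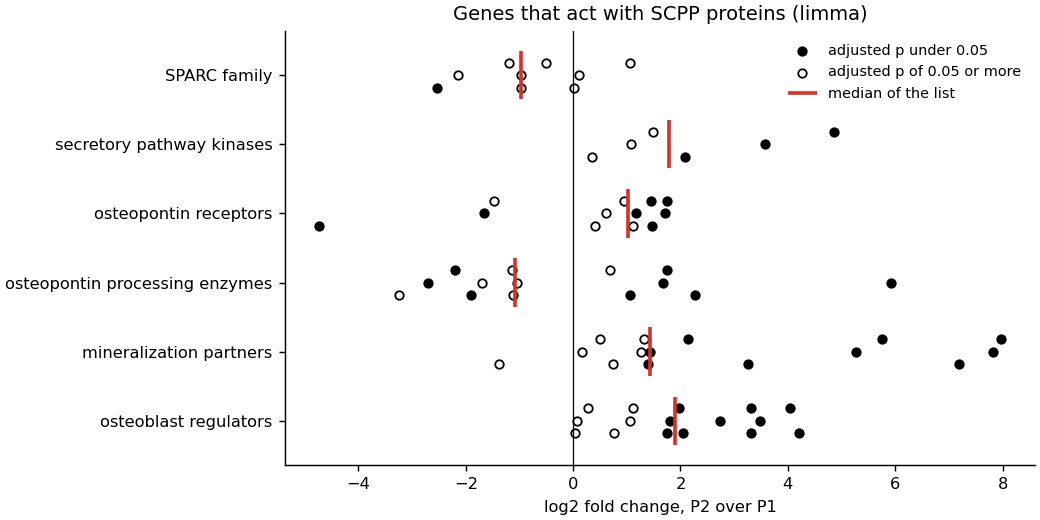
log2 fold change of P2 over P1 for the tested genes of each list that acts with SCPP proteins, filled where the limma adjusted p was under 0.05, with the median of each list in red. Mineralization partners reach 7.96, the SPARC family has its median at -0.97, and cd44a at -4.73 is the lowest point among the receptors.

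The genes whose pattern over the 8 libraries was most like that of the members highest in P2 were found by Pearson's r of the log2(value + 1) levels. For enam they were mc5rb, a melanocortin receptor gene (r = 0.99), nmt1b, cpne4a, col5a2b, a fibrillar collagen gene, and fzd5, a Wnt receptor gene (r = 0.98 for fzd5). For spp1 they were elovl1b, a fatty acid elongase gene (r = 0.99), helb, ptk2ab, a focal adhesion kinase gene, micall2b and ptgs1, a cyclooxygenase gene (r = 0.98 for ptgs1). The difference between the populations enters each r. elovl1b had 1442, 1962 and 1402 normalized counts in P2 and 750, 505, 285, 263 and 512 in P1, and so shared with spp1 both the highest P2 library, replicate 2, and the low P1 replicates 3 and 5. A search of the same kind for scpp9, added after its values were seen, put first tmc2a, a channel gene of sensory hair cells (r = 0.99). tmc2a had 0, 0.275 and 0 normalized counts in P2 and 0.302, 0.741, 6.64, 12.3 and 4.55 in P1, low throughout and past the filter only through P1, with the P1 libraries in the same order as for scpp9 (log2 fold change -1.95, SE 0.75, limma adjusted p = 0.0954).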

How the data were processed

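RNA of FACS-sorted sp7-GFP cells was amplified (SMART-Seq 2), made into Nextera XT libraries and sequenced single-end. The authors aligned the reads to GRCz11 with Ensembl genes in the nf-core RNA-seq workflow and deposited read counts divided by DESeq2 size factors, a signal scale. Whole reads were recovered by multiplying by a size factor, within 0.01 of a whole number for 100% of 260160 values. limma 3.58.1 (R 4.3.3) was run on log2(value + 1) for the 18475 genes with 10 reads in 3 libraries, with Benjamini-Hochberg adjustment over all of them and a threshold of 0.05. edgeR 4.0.16, DESeq2 1.42.0 and voom on the recovered reads, other scalings, pseudocounts (5, 0.5) and filters, a replicate block and single left-out libraries were the alternatives. The fit was tested on simulated data. Members, lists and tests were chosen with earlier results of these data known. Named were all members, list genes and neighbours past the threshold (values for up to 4 per list, lowest adjusted p first, or where a sentence turns on one) and the 5 genes most like each of 2 members, and some genes that this rule names are not reported here. Tables of the authors' own comparisons (2, with fold changes and p-values) and 10 further per-sample columns were not used. Of the 32520 rows, 64 had no symbol and all 7 member identifiers matched the gene name table.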

Additional observations from a re-analysis of the deposited data

Results flagged for a closer look

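In 4 of 30 genes examined (the members, odam and the list genes with values), 1 of the 5 P1 libraries lay farther from the rest than Dixon's 95% limit allows. For normally distributed values chance gives such a library in about 1 in 20 groups. The values were untransformed counts, and the genes share the same libraries, so the 4 cannot be weighed against that rate. scpp8 had 48.9 normalized counts in P1 replicate 5, with 8.78 in the next library. fam20ca had 18.3 in P1 replicate 2, with 4.43 in the next. ifitm5 had 55.0 in P1 replicate 1, with 17.2 in the next. fstl1a was lowest in P1 replicate 6 at 33.2, with 61.2 in the next.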

How the results depend on the processing

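In all 21 alternatives spp1, enam and scpp1 stayed higher in P2 and past the threshold. Their log2 fold changes were 3.57 to 4.83, 8.93 to 11.34 and 4.49 to 4.92. So did scpp7 in the 20 in which it was tested (2.33 to 7.35). However, scpp7 passed the main filter only through P2, and the filter of 10 reads in 5 libraries left it out. scpp5 stayed lower in P2 but lost its call in 8, and scpp9 gained one in 6 of 20. The number of called members was 4 to 6, also when 1 library was left out. The 2700 genes called became 1292 with voom and 4792 without both P1 replicate 2 and P2 replicate 2, an alternative chosen after seeing the data, and 901 (without P2 replicate 1) to 4004 (without P2 replicate 2) when 1 library was left out. Without P2 replicate 4, P1 replicate 3 and P1 replicate 5 the numbers were 1139, 1675 and 1436. The 38 list calls became 22 to 44 when 1 library was left out. The cause was not tested. With TMM scaling 2472 genes were called, 39.9% of them higher in P2 in place of 51.8%. Without mitochondrial reads the mean SCPP share was 0.538% in P2 and 0.0917% in P1. As a share of all reads, leaving out 1 library gave 0.426 to 0.442% in P2 and 0.0534 to 0.0786% in P1.

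The replicate numbers are shared by the populations only for replicates 1 and 2. The titles of same-numbered libraries also share a prefix, whose meaning is not given. The sources do not say whether these came from the same sort, so the main fit did not pair them. Their deviations had r = -0.07, but with replicates 1 and 2 alone centred this is a single contrast, which cannot decide on pairing. With a replicate block over these 4 libraries 454 genes, 4 members and 13 list genes were called, and without the block 199, 4 and 12. scpp8 then had a log2 fold change of 0.90 (limma adjusted p = 0.816 with and 0.755 without the block), against -1.13 over all libraries, and these fits hold fewer libraries and leave out P1 replicate 5. A random replicate block over all 8 libraries gave 2492 genes. With 1 read each of scpp9 and odam in P2, depth limits what can be said of their levels there.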
